A study of Rattus norvegicus with 31 samples.

Results

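The nuclear genes for subunits of respiratory complex I were followed through the gastrocnemius, a mixed but mainly fast calf muscle, of 31 female Sprague Dawley rats. Members were all genes of the deposited tables whose symbol is Ndufa, Ndufab, Ndufb, Ndufc, Ndufs or Ndufv followed by a number, with the Ndufaf assembly factors left out. This gave 35 of 11289 identifiers, and 34 of them, each with a symbol of its own, passed the filter on low counts. The identifier left out of the tests is a second entry for Ndufv3 with 156 counts over all libraries. Ndufa1, Ndufa10, Ndufb1 and Ndufs6 are not analysed here.

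All rats were 7 months old and ate chow. The groups were 8 control rats at room temperature (animals 1 to 8), 7 Ucp1 knockout rats at room temperature (9 to 15), 8 control rats kept at 4 °C (16 to 23) and 8 Ucp1 knockout rats kept at 4 °C (24 to 31), each for 14 days. Ucp1 encodes the uncoupling protein with which brown fat makes heat, and the design asks how muscle responds to cold with and without it. Ucp1 itself had 0 rows in the tables, so genotype rests on the labels, which describe neither the allele nor how it was made, and give no degrees for room temperature. Each animal gave 1 library of 3' tags, and p-values measure the spread between animals of a group.

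Complex I passes electrons from NADH to ubiquinone and pumps protons across the inner mitochondrial membrane. A matrix arm holds the flavin and the iron-sulfur clusters, and a membrane arm holds the pumping machinery, whose core subunits are encoded in mitochondrial DNA. The nuclear genes supply the core of the matrix arm and all accessory subunits, which wrap and steady both arms. Oxidative muscle is rich in the complex, and its genes are known targets of factors such as NRF1, GABPA and ESRRA. Ndufa4 keeps a complex I name, but its protein is now counted with complex IV.

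A promoter window was matched by symbol for 31 of 34 members, which lie on 14 chromosomes. The windows come from RefSeq, assembly GRCr8, and run from 250 bases before to 50 bases after 1 annotated start of the gene, whereas the authors' counts rest on the older Rnor 6.0 build. That start is the outer end of the annotated gene for 22 of the 31, the 4 shown included, and lies 9 to 2507 bases inside it for the other 9. Windows of 4 members are shown, chosen from those on which the results below turn. Ndufa6 had the smallest p-values in the cold comparisons, Ndufb7 and Ndufa11 deviated most alike from animal to animal, and Ndufa12 was among the members that varied most. Capitals mark matches on either strand to CCGGAAG, the GABPA motif, GCGCA followed by any base and GCGC, the NRF1 motif, AAGATGGC, the YY1 motif, TCAAGGTCA, the ESRRA motif, and GGGCGG, the SP1 motif, which read on the other strand as their reverse complements.
Ndufa6, chr7:115750268-115750567, minus strand: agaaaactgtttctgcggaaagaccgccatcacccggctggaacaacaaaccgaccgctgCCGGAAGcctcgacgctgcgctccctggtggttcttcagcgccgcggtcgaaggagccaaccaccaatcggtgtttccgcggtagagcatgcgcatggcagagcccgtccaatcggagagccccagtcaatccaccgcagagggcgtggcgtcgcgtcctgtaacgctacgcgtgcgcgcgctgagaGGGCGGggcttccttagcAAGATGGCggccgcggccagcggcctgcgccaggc
Ndufb7, chr19:41477242-41477541, minus strand: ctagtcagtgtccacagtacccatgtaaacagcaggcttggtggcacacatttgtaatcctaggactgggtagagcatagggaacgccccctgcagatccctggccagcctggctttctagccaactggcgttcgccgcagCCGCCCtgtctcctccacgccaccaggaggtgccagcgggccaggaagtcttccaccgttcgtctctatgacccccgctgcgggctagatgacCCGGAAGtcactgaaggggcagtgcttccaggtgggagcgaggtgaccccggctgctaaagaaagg
Ndufa11, chr9:1637364-1637663, plus strand: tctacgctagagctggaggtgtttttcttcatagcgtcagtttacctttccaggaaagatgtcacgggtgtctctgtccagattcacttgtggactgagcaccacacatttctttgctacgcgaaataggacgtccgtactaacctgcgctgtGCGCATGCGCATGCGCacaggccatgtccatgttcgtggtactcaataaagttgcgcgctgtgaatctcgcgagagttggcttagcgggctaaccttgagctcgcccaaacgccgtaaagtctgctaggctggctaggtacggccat
Ndufa12, chr7:30658066-30658365, plus strand: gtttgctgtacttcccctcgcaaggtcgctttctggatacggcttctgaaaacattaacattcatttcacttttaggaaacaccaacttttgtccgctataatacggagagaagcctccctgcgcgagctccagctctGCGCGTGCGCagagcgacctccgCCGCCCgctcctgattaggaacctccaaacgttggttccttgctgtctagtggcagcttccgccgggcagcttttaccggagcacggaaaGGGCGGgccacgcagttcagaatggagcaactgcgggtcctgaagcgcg

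The Ndufa6 window holds a GABPA, an SP1 and a YY1 match, and that of Ndufb7 a GABPA and an SP1 match. In Ndufa11 the 2 NRF1 matches overlap each other, and in Ndufa12 1 NRF1 match stands beside 2 SP1 matches. The windows of Ndufb6 and Ndufab1, on which the results below also turn, held no match to any of these motifs. Over the 31 windows, 7 held the YY1 motif (22.6%), against 3.44% of all 27457 windows of the same length. The NRF1 motif was in 6 (19.4%, against 4.71%) and the GABPA motif in 6 (19.4%, against 9.22%), and 12 held either of these (38.7%, against 13%). SP1 matches were in 12 windows (38.7%, against 34.9%), and no window held the ESRRA motif (0%, against 0.412%). The window of a gene on the opposite strand overlapped that of the member in 9 of 31 cases (29%), against 9.67% of all windows, and the median GC content was 56.3%, against 52.3%. All windows include those of genes that were not tested in this muscle, so the shares are not set against expressed genes only. These matches describe letters in the windows and not bound sites.

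Libraries held 6559971 to 11859690 counts, with a median of 9263506. All 8 tested markers of skeletal muscle were counted, at summed levels of 94997 to 190882 CPM (a gene's counts relative to the TMM-scaled library total). Animals 1 and 2 stood apart from the other libraries on the second principal component of log2 levels, at -62.3 and -79.8 where no other library was under -9.75. Some markers of several cell types passed the threshold between temperatures. Averaged over genotypes, 3.67% of all genes were called higher in the cold and 1.98% lower. Of the slow and oxidative fibre markers, 9 of 10 were higher in the cold. Their sum ran from 9547 to 20805 CPM in controls and from 10621 to 17879 CPM in knockouts at room temperature, and from 22007 to 29289 CPM and from 16041 to 38551 CPM in the cold. Higher in the cold were also 3 of 7 immune, 3 of 4 erythrocyte, 1 of 8 adipocyte (Retn) and 1 of 8 fast fibre markers (Casq1). Of 6 endothelial markers 1 was lower (Cdh5), and 0 of 7 fibroblast and tendon markers were called. The erythrocyte calls were Alas2 and Hba-a2, the latter counted under more than 1 identifier. Over all libraries the immune markers summed to 19.7 to 250 CPM, the erythrocyte markers to 254 to 2018 CPM and the adipocyte markers to 167 to 1282 CPM. The part of these shifts in the member values was not tested, and fewer cells of a type cannot be told apart from less RNA per cell.

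In this muscle the subunit genes were abundant but very unequal in their 3' tags. Together they took 1.71% ± 0.138 of all tags (SD, n = 31), and 24 of 34 were among the 500 highest of 10082 tested genes. A tag count does not grow with transcript length but depends on where a 3' end is annotated, so levels of different genes are compared as tags only. Ndufb9, a distal membrane arm subunit, led with a mean of 2165 CPM and ranked first among the members in all 31 libraries. It was followed by Ndufa5 of the matrix arm (1383 CPM), Ndufb2 of the distal membrane arm (1001 CPM) and Ndufa11 of the proximal membrane arm (998 CPM). The neighbours Ndufb2 and Ndufa11 did not differ beyond their spread, with ranges of 693 to 1235 and 517 to 2225 CPM over the libraries. Ndufb9 alone gave 12.6% of the members' tags.

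At the other end stood Ndufs1, the large iron-sulfur subunit (33.6 CPM), Ndufb6 (23.5 CPM), Ndufc1 (14.6 CPM), Ndufa12 (9.61 CPM) and Ndufs5 (6.31 CPM). Means of the highest and lowest member differed 343-fold, although the proteins are built into the same complex. Accessory subunits, and genes of both arms, were found at both ends of this order. Ndufs5 is uncertain, since another identifier with 1023 counts carries the same symbol in a second name column, and reads could be assigned to either copy.

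Cold changed none of the 34 genes past the threshold in either genotype. In controls the count was 0 of 34 (edgeR quasi-likelihood test, Benjamini-Hochberg adjusted p under 0.05 over all 10082 genes), where 0.853% of all tested genes were called, 0.595% higher and 0.258% lower. In knockouts it was 0 of 34, where 1.38% of all tested genes were called, 1.02% higher and 0.357% lower. The median change in controls was 0.01 (log2) over the members and -0.03 over all genes, and in knockouts -0.00 and 0.02. Without adjustment, 0 members in controls and 1 in knockouts had a p under 0.05, against 14.2% and 14.3% of all genes, and DESeq2 called 0 members in both. No member had groups that did not overlap, but the share of all genes without overlap was not computed, so this count has no background.

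**Figure D1:**
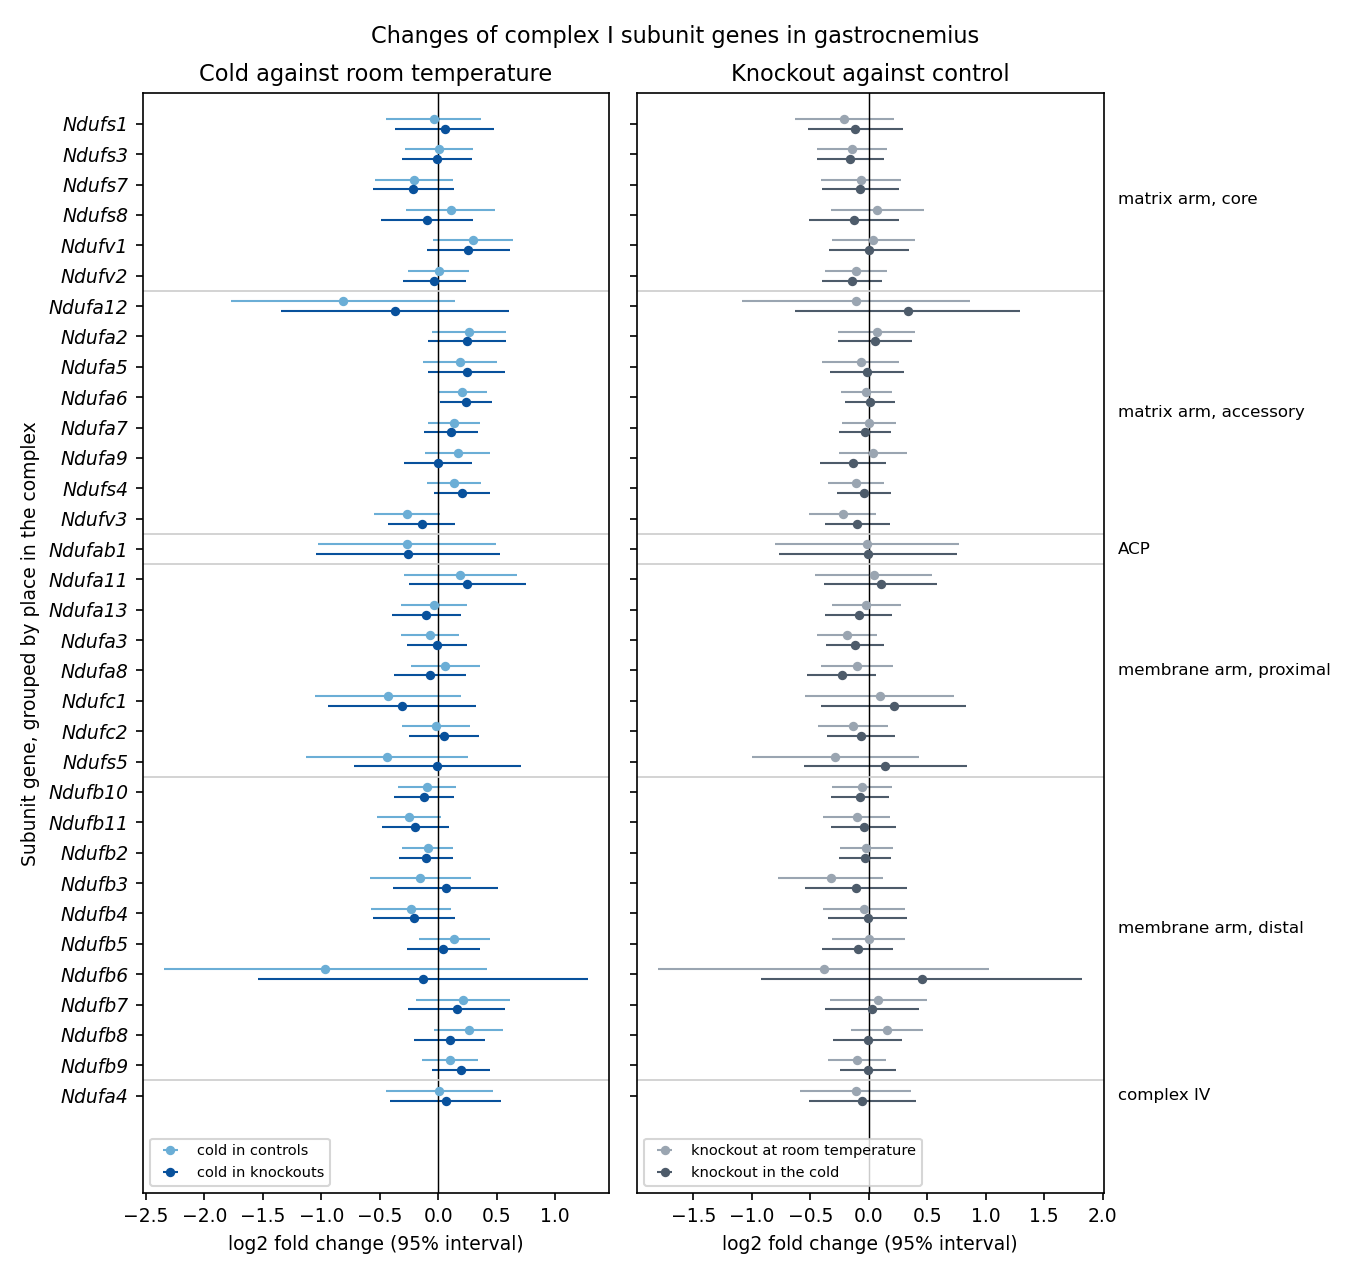
Log2 fold changes of the tested genes with 95% intervals, cold against room temperature on the left (in controls and in knockouts) and knockout against control on the right (at room temperature and in the cold), grouped by place in the complex. Most intervals are short and cross 0, and the widest belong to Ndufb6 and Ndufa12.

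The intervals bound what could have been missed. The 95% interval of the cold change lay within 1.5-fold in either direction for 24 of 34 genes in controls and 27 of 34 in knockouts. It reached past 2-fold for Ndufab1, Ndufb6, Ndufc1, Ndufa12 and Ndufs5 in controls and for Ndufab1, Ndufb6 and Ndufa12 in knockouts. For those genes the libraries did not resolve a change of that size.

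Averaged over both genotypes, which uses all 31 animals, cold again called 0 of 34 members, where 5.65% of all genes were called, 3.67% higher and 1.98% lower. Without adjustment 6 members had a p under 0.05, which is 17.6% of them against 19.5% of all genes, so the share was near the background. The median change was 0.00 over members and -0.02 over all genes, and 18 changes were above 0 and 16 below. The interval stayed within 1.5-fold for 29 of 34 genes, the exceptions being Ndufab1, Ndufb6, Ndufc1, Ndufa12 and Ndufs5.

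Within the core of the matrix arm, changes with cold averaged over genotypes ran from -0.21 to 0.28 with a median of 0.01. Ndufv1, which binds NADH and the flavin, had 337, 409 and 525 CPM in controls at room temperature (lowest, median and highest) and 431, 465 and 646 CPM in controls in the cold. In knockouts it had 292, 402 and 546 CPM at room temperature and 303, 482 and 830 CPM in the cold. The groups overlapped in both genotypes, with the cold medians on the higher side. Its change was 0.29 ± 0.17 (log2, SE) in controls, 0.26 ± 0.17 in knockouts and 0.28 ± 0.12 on average, with an edgeR adjusted p of 0.191 for the last.

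Ndufs7, an iron-sulfur subunit near the ubiquinone site, was on the lower side in the cold, with a median of 514 CPM in room temperature controls and 444 in the cold, and 498 and 430 in knockouts. Its average change was -0.21 ± 0.12 with an edgeR adjusted p of 0.336. Ndufs3, Ndufs8, Ndufv2 and Ndufs1 had average changes from -0.01 (Ndufv2) to 0.01 (Ndufs1).

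Accessory subunits of the matrix arm included the member with the smallest p-value. Ndufa6, a LYR-motif subunit that holds the acyl carrier protein against the matrix arm, had 438, 605 and 665 CPM (lowest, median, highest) in room temperature controls and 567.5, 660 and 751 CPM in controls in the cold. In knockouts it had 451, 565 and 663 CPM at room temperature and 527, 686 and 809 CPM in the cold. The animals in the cold were shifted to higher values in both genotypes, and the groups overlapped. The change was 0.21 ± 0.10 in controls (edgeR adjusted p 0.361), 0.24 ± 0.11 in knockouts (edgeR adjusted p 0.294) and 0.22 ± 0.08 on average (95% interval 0.07 to 0.38, edgeR adjusted p 0.0761). DESeq2 placed the average change under the threshold (adjusted p 0.0398), 1 of 34 members where it called 7.04% of all genes, as did a covariate for hidden variation (edgeR adjusted p 0.0424 with 1 surrogate variable), which also called Ndufs7 lower (0.0293) and raised the share of all genes called to 12.6%.

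Ndufa2 had an average change of 0.25 ± 0.11 (edgeR adjusted p 0.195) and Ndufs4, needed for a stable complex, one of 0.17 ± 0.08 (edgeR adjusted p 0.249). Ndufa5 stood at 0.22 ± 0.11. Ndufv3, beside the flavin site, was on the lower side at -0.20 ± 0.10 (edgeR adjusted p 0.243), from a median of 49.6 CPM in room temperature controls to 43.8 in the cold and from 44.4 to 38.6 in knockouts. In controls alone the Ndufv3 change was -0.27 ± 0.14 (edgeR adjusted p 0.370). The lowest average estimate of all members was that of Ndufa12, -0.59 ± 0.34, with an interval of -1.27 to 0.09. Ndufa12, an accessory subunit of the matrix arm, ran from 1.51 to 21.8 CPM (median 14.0) in room temperature controls and from 1.59 to 12 CPM (median 6.65) in controls in the cold. In knockouts it ran from 2.11 to 17.4 CPM (median 12.1) and from 2.88 to 13.1 CPM (median 8.64), with overlap in both genotypes, and the changes were -0.81 ± 0.47 and -0.37 ± 0.48. Over the 8 genes of this group, 6 average changes were above 0, with a median of 0.15.

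In the membrane arm the estimates scattered around 0. The 7 proximal subunits had a median average change of -0.04 and the 10 distal ones -0.07. Ndufb11, a distal subunit encoded on the X chromosome, had medians of 427 and 363 CPM in controls and 395 and 375 CPM in knockouts, at room temperature and in the cold. Its average change was -0.22 ± 0.10 (edgeR adjusted p 0.191), and its groups overlapped. Ndufb9, the most abundant member, had medians of 2060 and 2186 CPM in controls and 2057 and 2360 CPM in knockouts, with a change of 0.10 ± 0.12 in controls and 0.20 ± 0.12 in knockouts. Ndufa11 had 0.19 ± 0.24 in controls and 0.25 ± 0.25 in knockouts. Ndufc1 had -0.43 ± 0.31 and -0.31 ± 0.31, and Ndufs5 -0.44 ± 0.34 and -0.01 ± 0.35.

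Ndufb6 had the lowest estimate in controls, -0.96 ± 0.68, with an interval of -2.35 to 0.42. Its 8 room temperature controls ran from 1.01 to 62.2 CPM with a median of 39.8, and its 8 controls in the cold from 2.15 to 39.4 CPM with a median of 12.8. Both groups thus held animals near 0 and animals near 40 CPM. In knockouts the change was -0.13 ± 0.69. Ndufab1, the mitochondrial acyl carrier protein, had -0.26 ± 0.37 in controls and -0.26 ± 0.39 in knockouts. Ndufa4 had 0.01 ± 0.23 and 0.06 ± 0.23.

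**Figure D2:**
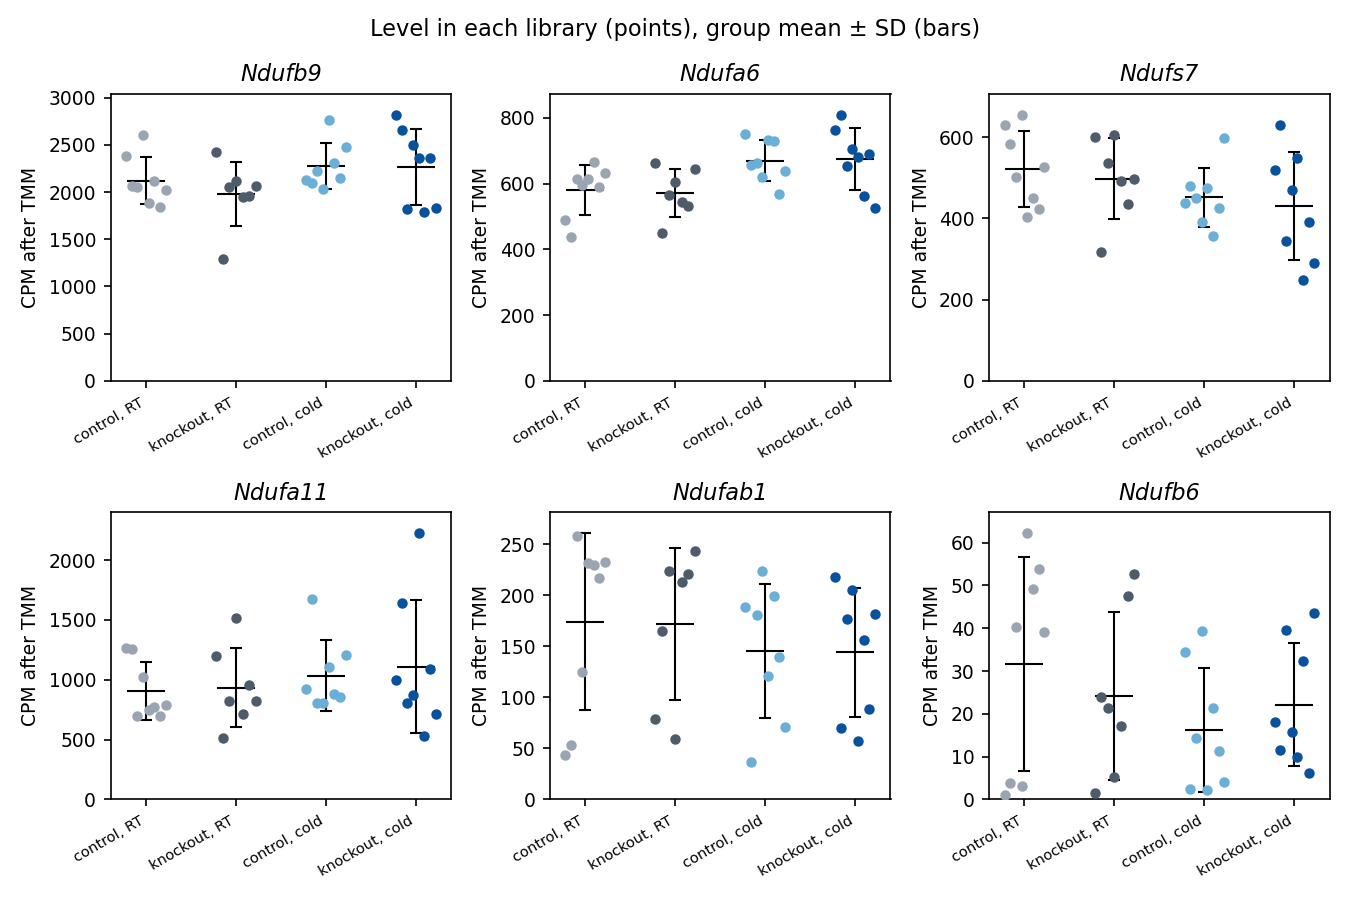
CPM after TMM scaling of 6 members in each of the 31 libraries (points) with the group mean and SD (bars), for 8 control and 7 knockout rats at room temperature (RT) and 8 of each in the cold. Ndufa6 sits higher in both cold groups with overlap, and Ndufab1 and Ndufb6 hold very low libraries in every group.

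The knockout comparisons gave no call in the module. At room temperature 0 of 34 members were called, where 0% of all genes were called, and in the cold 0 of 34, where 0.00992% were called. Averaged over temperatures the count was 0 of 34, where again 0% of all genes were called, and DESeq2 called 0 members in each of the 3 comparisons. Without adjustment 0 members had a p under 0.05 in any of them, against 7.06% of all genes at room temperature, 6.28% in the cold and 6.40% on average. The median knockout change was -0.06 at room temperature, -0.04 in the cold and -0.05 on average, against -0.03, 0.04 and 0.01 over all genes. On average 25 members were below 0 and 9 above. The share of all genes below 0 was not computed, and members share libraries, so this count has no background. The average interval lay within 1.5-fold for 31 of 34 genes, all but Ndufb6, Ndufc1 and Ndufa12.

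The smallest knockout p-values belonged to Ndufv3, Ndufa3 and Ndufa8. Ndufa3, a small proximal membrane subunit, had medians of 181 CPM in controls and 160 in knockouts at room temperature and of 174 and 167 in the cold, an average change of -0.15 ± 0.09 (edgeR adjusted p 0.862). Ndufv3 had -0.22 ± 0.14 at room temperature (edgeR adjusted p 0.744) and -0.16 ± 0.10 on average. Ndufa8, a twin cysteine-motif subunit, had 248, 290 and 323 CPM in controls in the cold (lowest, median, highest) and 167, 242 and 330 CPM in knockouts in the cold. Its change there was -0.23 ± 0.15 (95% interval -0.53 to 0.06, edgeR adjusted p 0.900), and the groups overlapped.

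Other estimates at the ends of the order were no firmer. At room temperature Ndufb8 (0.16 ± 0.15) and Ndufc1 (0.09 ± 0.31) were among the highest and Ndufb6 (-0.39 ± 0.69), Ndufb3 (-0.33 ± 0.22) and Ndufs5 (-0.29 ± 0.35) the lowest. In the cold Ndufb6 (0.45 ± 0.68), Ndufa12 (0.33 ± 0.47) and Ndufc1 (0.21 ± 0.30) were the highest, and Ndufs3 (-0.16 ± 0.14) and Ndufv2 (-0.14 ± 0.13) followed Ndufa8 at the low end. Without animals 1 and 2 Ndufc1 stood at -0.16 at room temperature. Averaged over temperatures, Ndufc1 (0.15 ± 0.22), Ndufa12 (0.11 ± 0.34) and Ndufb8 (0.08 ± 0.10) were highest and Ndufb3 (-0.22 ± 0.15), Ndufa8 (-0.17 ± 0.10) and Ndufv3 lowest.

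The difference between the genotypes in their response to cold was tested as an interaction, knockout minus control. It called 0 of 34 members, where 0% of all genes were called, with 0 members at a p under 0.05 before adjustment against 7.31% of all genes, and DESeq2 called 0. The highest estimates were those of Ndufb6 (0.84 ± 0.97), Ndufa12 (0.44 ± 0.67) and Ndufs5 (0.43 ± 0.49), and among the lowest were those of Ndufs8 (-0.20 ± 0.27) and Ndufa9 (-0.17 ± 0.20). The smallest edgeR adjusted p was 0.915, for Ndufs5. The interval lay within 1.5-fold for 21 of 34 genes, fewer than in the comparisons of 1 genotype.

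Partner genes encoded in mitochondrial DNA passed the test in the cold comparisons. Of 6 tested subunits encoded in mitochondrial DNA, which form the proton-pumping core, 2 were lower in the cold in controls and the same 2 in knockouts, Mt-nd5 and Mt-nd4l. Of all genes, 0.258% were called lower in controls and 0.357% in knockouts. Mt-nd5 went from a median of 1374 CPM to 865 CPM in controls and from 1350 to 740 CPM in knockouts. Its change was -0.62 ± 0.14 in controls (edgeR adjusted p 0.0237) and -0.75 ± 0.14 in knockouts (0.00338). The call in controls was lost without animal 21 (0.0563) and without animal 22 (0.0501). Mt-nd4l went from a median of 166 CPM to 83.7 in controls and from 133 to 60.5 in knockouts, changes of -1.01 ± 0.21 and -1.14 ± 0.21 (edgeR adjusted p 0.0127 and 0.00338).

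Averaged over genotypes 5 of the 6 mitochondrial genes were lower in the cold, against 1.98% of all genes. Besides Mt-nd5 and Mt-nd4l these were Mt-nd1 (-0.42 ± 0.10), Mt-nd2 (-0.56 ± 0.13) and Mt-nd3 (-0.57 ± 0.13), with edgeR adjusted p of 0.00900, 0.00648 and 0.00640. Mt-nd6 stood at -0.11 ± 0.17 (edgeR adjusted p 0.785), and Mt-nd4 is not analysed here. The same 5 genes were called under each of the 7 other settings that keep them and with any 1 library left out.

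Sums over the genes put the genomes side by side. The 34 nuclear genes summed to 16853 ± 1181 CPM in room temperature controls and 17868 ± 1197 CPM in controls in the cold (SD, n = 8 each). In knockouts they summed to 16399 ± 2270 CPM (n = 7) and 17461 ± 3100 CPM (n = 8). The 6 mitochondrial genes summed to 26340 ± 3342 and 19215 ± 1989 CPM in controls and to 24253 ± 5463 and 16825 ± 4130 CPM in knockouts. All mitochondrially encoded genes together, these 6 included, went from 12.5% ± 1.15 to 10.3% ± 0.989 of counts in controls and from 12.4% ± 1.59 to 9.43% ± 1.59 in knockouts. Whether the complex I genes differed from the other mitochondrial genes was not tested.

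The ratio of the nuclear to the mitochondrial sum was 0.647 ± 0.0771 in room temperature controls and 0.936 ± 0.0816 in controls in the cold. In knockouts it was 0.693 ± 0.113 and 1.07 ± 0.198. All 15 animals at room temperature had ratios of 0.478 to 0.817 and all 16 in the cold ratios of 0.854 to 1.49, so the temperatures did not overlap. The mean ratio was 1.45-fold higher in the cold in controls and 1.54-fold higher in knockouts. The nuclear sum alone was 1.06-fold the room temperature mean in both genotypes, and the mitochondrial sum 0.730-fold in controls and 0.694-fold in knockouts. Without animals 1 and 2 the room temperature controls had a ratio of 0.625 ± 0.0679. Since the ratio is a score over the members, no test was made of it, and the slow fibre markers given above moved with it. The same ratio was not computed for other nuclear genes, so its separation by temperature is not shown to be particular to complex I.

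**Figure D3:**
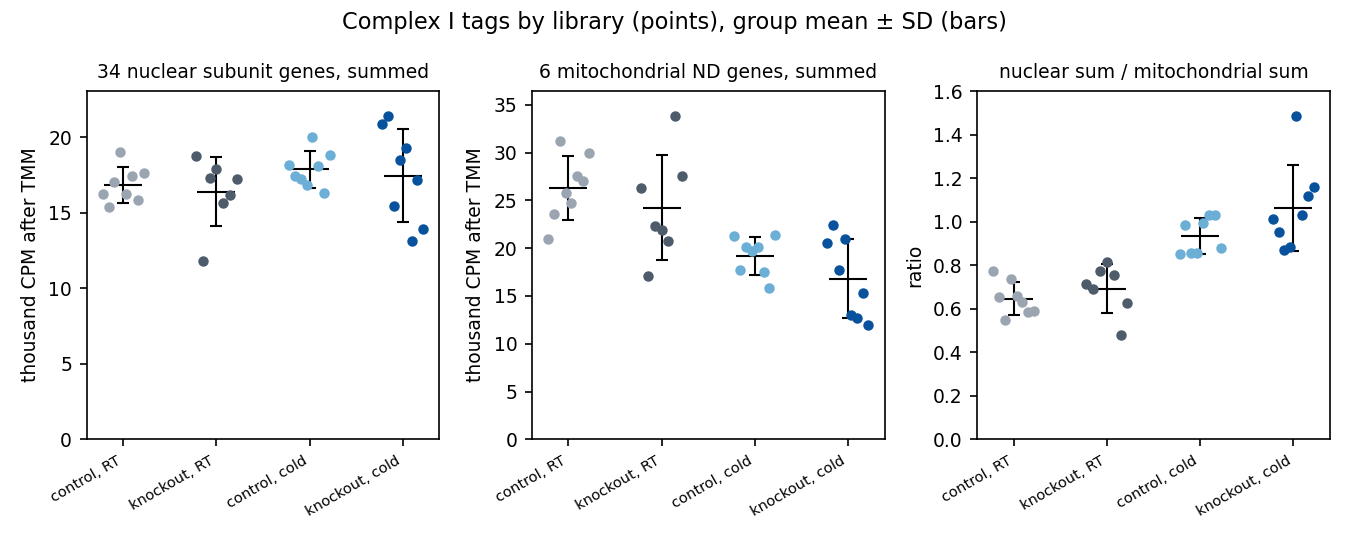
Summed CPM of the 34 nuclear subunit genes (left), of the 6 tested mitochondrial ND genes (middle) and their ratio (right) in each library (points) with group mean and SD (bars). The nuclear sums overlap between temperatures, and the ratios at room temperature all lie under 0.854, the lowest ratio in the cold.

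Other lists of the pathway are set beside the 3.67% of all genes that were higher in the cold on average. Of 16 tested assembly factors, which build complex I and then leave it, 0 were called in either genotype, and 1, Ndufaf7, was higher in the cold on average (0.32 ± 0.09, edgeR adjusted p 0.0234). Of 42 tested identifiers for nuclear genes of complexes II to V, 0 were called in either genotype. For complex III, 10 identifiers stand for 9 listed symbols. Higher on average were 2, Cox6a1 of complex IV (0.32 ± 0.09, edgeR adjusted p 0.0300) and Uqcrq of complex III (0.46 ± 0.13, edgeR adjusted p 0.0346). The median average change of those 42 was 0.03, against 0.00 for the complex I genes. These calls lie close to the threshold. That of Ndufaf7 was lost without animal 10 or 14 and that of Cox6a1 without animal 10, 14 or 30, at edgeR adjusted p of 0.0529 to 0.0582, and that of Ndufaf7 also without the 7 libraries of lowest score on the first component described below (0.0698). That of Uqcrq was lost without any 1 of 12 animals (3, 5, 6, 7, 8, 10, 11, 13, 14, 17, 20 or 25), at 0.0503 to 0.0599.

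Among 13 tested regulators of mitochondrial genes 1 was called higher in the cold in controls, where 0.595% of all genes were called higher. The same 1 was called higher on average, where 3.67% of all genes were, and 0 were called in knockouts. Esrrg, an orphan nuclear receptor of oxidative muscle, was higher in the cold in controls, from 12.8 to 28.2 CPM in the mean, a change of 1.14 ± 0.20 (edgeR adjusted p 0.00576). In knockouts the means were 17.5 and 23.7 CPM, a change of 0.44 ± 0.21 (edgeR adjusted p 0.319), and the difference between genotypes did not pass (-0.70 ± 0.29, edgeR adjusted p 0.608). Averaged over genotypes the Esrrg change was 0.79, past the threshold.

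Animals within a group differed more for some members than for others. The biological coefficient of variation, the relative spread that edgeR estimates between animals, had a median of 0.221 over the members and 0.271 over all genes. These medians are not matched for level, and 24 of 34 members were among the 500 highest genes. Ndufa6, Ndufb2 and Ndufa7 were steady, with highest over lowest libraries of 1.85-fold, 1.78-fold and 1.74-fold. Ndufb6 ranged 61.7-fold, Ndufa12 14.4-fold, Ndufc1 8.35-fold and Ndufab1 7.14-fold, and these 4 lay above the 90th percentile of the 100 genes nearest to them in level. A 90th percentile leaves a share of any genes above it, and 4 of 34 is close to that share. Ndufab1 is not a gene of low counts, and ran from 36.2 to 258 CPM with 272 to 2412 counts a library.

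Pairs of members deviated alike or in opposite directions. After each gene's group mean was taken away, the log2 levels of 561 pairs of members over 31 libraries had a median Pearson r of 0.317 and a range of -0.802 to 0.965. Ndufb7 and Ndufa11 were the most alike (r 0.965, Spearman rho 0.925), followed by Ndufs8 and Ndufa9 (r 0.943, rho 0.927). Ndufa12 and Ndufab1 followed each other too (r 0.913, rho 0.861), whereas Ndufab1 and Ndufa11 deviated in opposite directions (r -0.802, rho -0.624), less so without the 7 libraries named below (r -0.501). In all, 191 pairs were above 0.5 and 175 were negative, of which 39 were under -0.5, against 14 without those 7 libraries. These values share libraries and scaling and are given as a description. Pairs of genes outside the module were not computed, so the counts of pairs have no background.

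Members moved both with and against the first principal component of all genes, which held 35.3% of the variance. Of 34 genes, 9 had r above 0.5 with it, led by Ndufab1 (0.909), Ndufb6 (0.849) and Ndufa12 (0.824). Another 11 had r under -0.5, led by Ndufa11 (-0.904), Ndufb7 (-0.893) and Ndufa5 (-0.870), and 14 lay between, among them Ndufa6 (-0.13). The same shares over all genes were not computed, so these counts have no background and may not be particular to the module. Both arms of the complex had members on both sides: Ndufa12 and Ndufa5 sit in the matrix arm and Ndufb6 and Ndufb7 in the distal membrane arm. The matrix arm leaned to the negative side, where Ndufs7, Ndufs8, Ndufa2, Ndufa7, Ndufa9 and Ndufv1 also had r under -0.5. Apart from the acyl carrier protein Ndufab1, only Ndufa12 and Ndufs1 of that arm had r above 0.5. Whether the sides go with the arms was not tested. The 5 members of lowest mean level were all positively related to each other (r 0.514 to 0.899).

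The component set apart animals of every group. The sign of a component is arbitrary, and a low score here is on the side where Ndufab1 is low. The 7 lowest scores were those of animals 1, 9, 12, 17, 23, 25 and 28, which cover all 4 groups. Ndufab1 was lowest in its group in animal 1 (43.9 CPM), 12 (59.0), 17 (36.2) and 28 (56.8), where the group medians were 224, 213, 160 and 167 CPM. Ndufa11 was highest in its group in the same 4 animals, at 1265, 1514, 1677 and 2225 CPM. The genes thus lay at opposite ends of their groups within single libraries. Both were picked for their strong correlation with the component, so their place in libraries of low score largely follows from that choice. Without the 7 libraries the median r over pairs was 0.441 and 8 and 11 members had r with the component above 0.5 and under -0.5, and without animals 1 and 2 it was 0.352, with 9 and 11 members.

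**Figure D4:**
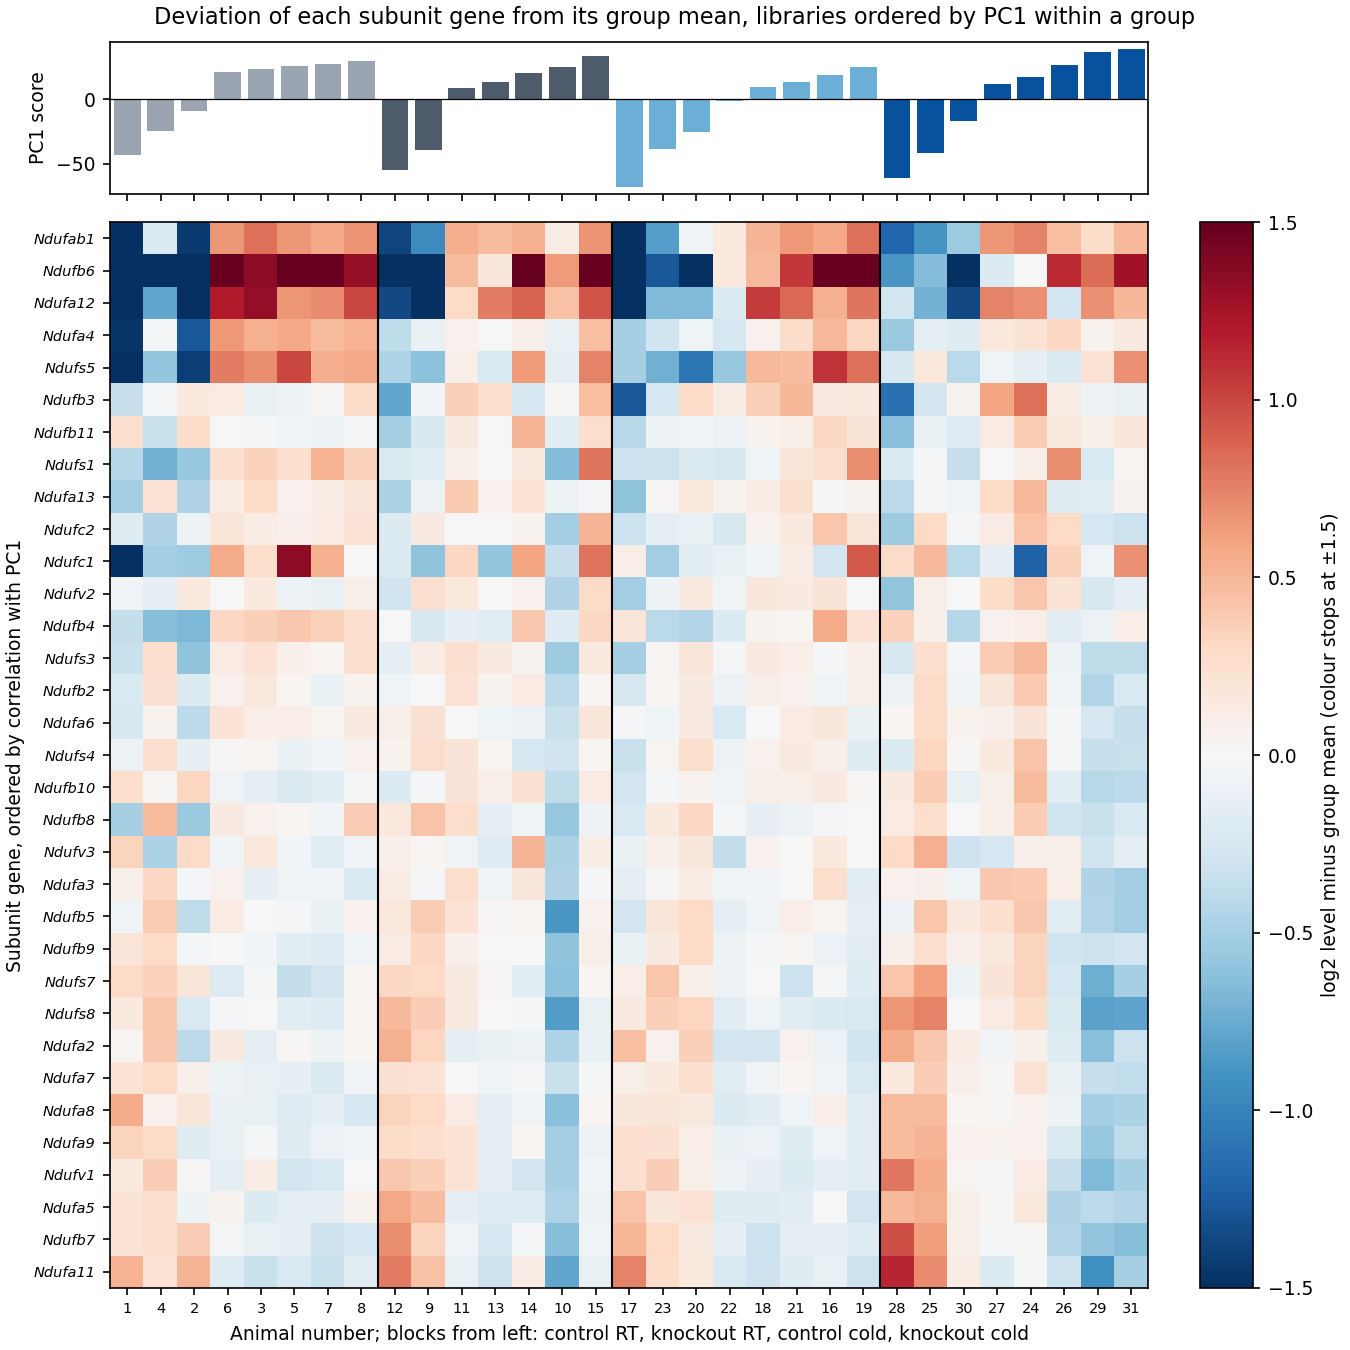
Deviation of each member's log2 level from its group mean (colour, red higher and blue lower) in the 31 libraries, ordered within each group by the score on the first principal component (bars above), with genes ordered by their correlation with it. Members at the top are low and members at the bottom high in the libraries of lowest score, in all 4 groups. This pattern largely follows from the way genes and libraries were ordered.

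What the libraries of lowest score share was not tested, and the labels name no batch. With that component as a covariate the cold comparison averaged over genotypes called 2 of 34 members, Ndufa6 higher (0.22 ± 0.07, edgeR adjusted p 0.0422) and Ndufs7 lower (-0.27 ± 0.08, 0.0326), where 12.6% of all genes were called. Without the 7 libraries of lowest score it called 0, with Ndufa6 at 0.22 ± 0.08 (edgeR adjusted p 0.124).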

How the data were processed

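Total RNA of 31 gastrocnemius samples was made into 3' tag libraries, per the labels' protocols. The authors deposited raw counts per gene and a table of normalized signal. DESeq2 1.22.2 and build Rnor 6.0 are named, per the submitters' processing notes. For the aligner, the counter and strandedness of counting: not given in the sources used here. Each deposited signal value equalled its count divided by 1 factor per library (relative difference up to 5.23e-10), so counts were tested. The lowest gene total in the table was 93. No molecular identifiers are named, so counts may include PCR copies.

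In R 4.3.3, edgeR 4.0.16 was run on all 31 libraries with TMM scaling, filterByExpr (minimum count 10, minimum total 15), 1 mean per group, 27 residual degrees of freedom and quasi-likelihood tests. Standard errors are the change divided by the root of its F statistic. P-values are two-sided, adjusted by Benjamini-Hochberg over 10082 genes within each of 7 contrasts, with a threshold of 0.05. Log2 levels used a prior count of 2. The fit was tested on simulated data. The alternatives were DESeq2 1.42.0, other scalings and filters, 1 surrogate variable (sva 3.50.0), the first principal component as a covariate, and libraries left out. Named are, per contrast, the 3 highest and 3 lowest changes, the 3 smallest p-values and any passing member, and the 5 highest and lowest levels; genes outside the module are named where they passed. Other members were named after their values were seen. Members and lists were chosen with earlier results of these data known. RefSeq windows were matched by symbol and searched on both strands. 1 member is counted in totals and tests but its own values are not reported here.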

Additional observations from a re-analysis of the deposited data

Results flagged for a closer look

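Single libraries stood far from the rest of their group in 11 of 136 combinations of member and group, by Dixon's criterion on the gap to the next value; chance alone sets apart about 1 in 20 groups, here 6.8. Animal 17, a control in the cold, accounted for 5 of them. It had the lowest Ndufs3 (266 CPM), Ndufb10 (245 CPM), Ndufa13 (192 CPM) and Ndufv2 (561 CPM) of its group and the highest Ndufa11 (1677 CPM). It also had the lowest score of all 31 libraries on the first principal component. Animal 10, a knockout at room temperature, had the lowest Ndufb9 (1286 CPM) and Ndufb5 (409 CPM) of its group. Ndufs1 was highest in animal 15 (52.1 CPM, knockout at room temperature) and in animal 26 (51.0 CPM, knockout in the cold). Ndufa8 was highest in animal 1 (399 CPM, control at room temperature) and Ndufc1 in animal 19 (21.7 CPM, control in the cold).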

How the results depend on the processing

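The count of 0 called members held in 6 of the 7 comparisons under every setting tried. For cold averaged over genotypes it was 1 with DESeq2 (where 7.04% of all genes were called), 2 with 1 surrogate variable and 2 when the leading principal component was a covariate (12.6% of all genes were called with each), and 0 under the other scalings, filters and left-out libraries. Leaving out each library in turn gave 0 to 0 calls in all 7 comparisons, with a smallest edgeR adjusted p of 0.0549. The cause of the calls with other models was not tested. Signs turned for knockout changes near 0. At room temperature, without animals 1 and 2, Ndufc1 was -0.164. With single libraries left out Ndufc1 ran from -0.0693 to 0.358 and was below 0 without animal 1, 14 or 15. Without the 7 libraries of lowest score, a setting chosen after seeing the data, Ndufb8 was -0.0216 at room temperature and -0.0479 on average. Without animals 1 and 2 the average knockout change of Ndufa12 was -0.0636. No paired analysis was possible because no animal number is shared by 2 groups. Depth was lowest for Ndufb6, Ndufc1, Ndufa12 and Ndufs5, with as few as 8, 33, 12 and 15 counts in a library. Interaction and averaged comparisons have no fit on the compared groups alone. The settings for genes outside the module were also applied after seeing the data, and in the cold 2 to 3 mitochondrial subunits were called lower in controls and 2 to 4 in knockouts under settings other than single omissions.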
